A study of Pongo abelii with 6 samples.

Results

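The genes that encode the RNA polymerases, Mediator, the basal transcription factors, the elongation factors and Integrator were examined in induced pluripotent stem cells of the Sumatran orangutan (Pongo abelii). Members were protein-coding genes whose symbol belongs to the POLR1, POLR2 or POLR3, MED, TAF, TBP, TBPL, GTF2 or GTF3, ELOA, ELOB and ELOC, SUPT, INTS or ELL families. The RefSeq gene table holds 138 such symbols, and 65 of them (47.1%) could be paired with at least 1 deposited transcript, out of 15205 paired genes in all. The other 73, among them POLR2A, MED1, MED12, GTF2B, TAF4, ELOA and ELOB, were not analysed here. The 65 members had 116 named transcripts, from 1 for 45 of the genes to 14 for SUPT20H.

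The study has 2 lines, Djasinga and Dokana, each represented by 3 libraries made from total RNA after ribosomal RNA was removed. Both lines were grown on Matrigel in iPS-Brew with 1 µM IWR1, a tankyrase inhibitor that damps Wnt signalling, and 0.5 µM of a compound given as CHIR. The labels give no allele or treatment that sets the lines apart, and their treatment field calls the cells differentiated while titles and protocols describe undifferentiated cells. The libraries of a line are 3 sequential passages of its culture, which the design text calls technical replicates and the sample titles biological ones, and each line stands for 1 source of cells. SDs and p-values thus cover passage-to-passage spread, not spread between animals. Levels are TPM, a length-corrected share of a library, so that levels of different genes can be set side by side, and a gene's level is the sum over its named transcripts. Assembled transcripts without a symbol held 71.7% to 81.2% of each library's TPM. All transcripts without a symbol, RefSeq ones included, held 82.4% to 88.1%. They may carry further RNA of the same genes, so a low sum need not mean a low gene. The depth behind each value is unknown, because TPM does not retain it.

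RNA polymerases I, II and III divide the work of transcription in the nucleus. RNA polymerase I makes the large ribosomal RNA precursor, RNA polymerase II makes messenger RNA and most small nuclear RNA, and RNA polymerase III makes transfer RNA and other short RNAs. RNA polymerase II is placed at promoters by the general factors TFIIA to TFIIH, with TFIID made of TBP and its associated factors, the TAFs. Mediator bridges it to activators, the elongation factors carry it through the gene, and Integrator cleaves nascent RNA and ends transcription early at many genes. In pluripotent cells Mediator and TFIID subunits are known to act with the pluripotency factors.

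Pluripotency markers were present in every library. The 7 of 10 fixed markers paired with a symbol summed to 284 to 351 TPM in Djasinga and 391 to 488 TPM in Dokana, and POU5F1, TDGF1 and PODXL were not analysed. NANOG was at 49.9 ± 21.1 TPM in Djasinga and 78.3 ± 21.1 TPM in Dokana (SD, n = 3 each). The 3 paired trophoblast markers summed to at most 0.0396 TPM in Djasinga and 0.0504 TPM in Dokana, and the 4 endoderm markers to at most 1.42 TPM in Djasinga and 0.878 TPM in Dokana. The 5 mesoderm markers reached 1.77 and 2.25 TPM, the 3 paired neuroectoderm markers 4.76 and 7.16 TPM and the 5 paired fibroblast markers 7.58 and 9.47 TPM in Djasinga and in Dokana. These sums leave out markers that were not paired. They were COL1A1, S100A4 and VIM of 8 fibroblast markers, NES of 4 neuroectoderm markers and KRT7 of 4 trophoblast markers. TWIST2 (up to 6.16 TPM in any library) and COL1A2 (up to 4.24 TPM) made up most of the fibroblast sum, while COL3A1 was at most 0.00903 TPM. OTX1 (up to 6.12 TPM) and SOX1 (up to 1.83 TPM) made up most of the neuroectoderm sum, while PAX6 was at most 0.0132 TPM. The part of these markers in the results was not tested.

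One assembled transcript without a symbol took 26.7% to 42.4% of the TPM in Djasinga and 16.9% to 28.2% in Dokana. The median of the 6255 genes tested differed by -0.29 between the lines on the log2(TPM + 1) scale, Djasinga minus Dokana, and by -0.0097 after median-ratio scaling, which sets each library by its median transcript. Scaled values are given beside many of the differences between the lines, but not all. All TPM values, those of the markers included, are as deposited and hold this common shift.

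Levels of the members spanned from traces to 40.4 TPM, and 22 of the 65 averaged at least 10 TPM over the 6 libraries. The median tested member stood at 6.03 TPM in Djasinga and 7.75 TPM in Dokana, against 4.30 TPM and 5.46 TPM for all genes tested. The filter of at least 1 TPM in at least 3 libraries kept 53 members. The 12 left out, GTF2A1L, GTF2IRD1, GTF3A, INTS14, MED6, MED8, SUPT20HL2, TAF1C, TAF1L, TAF7L, TAF9 and TBPL2, all averaged under 1 TPM. The sums of GTF3A, the initiation factor for 5S ribosomal RNA, and of MED6, a core subunit of the Mediator head, are each those of 1 named transcript. GTF3A was at 0.266, 0 and 0 TPM in Djasinga and 0.0922, 0 and 0 TPM in Dokana replicates 1, 2 and 3. For both genes these values describe the named transcript alone. Whether transcripts without a symbol carry more of their RNA was not tested.

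**Figure D1:**
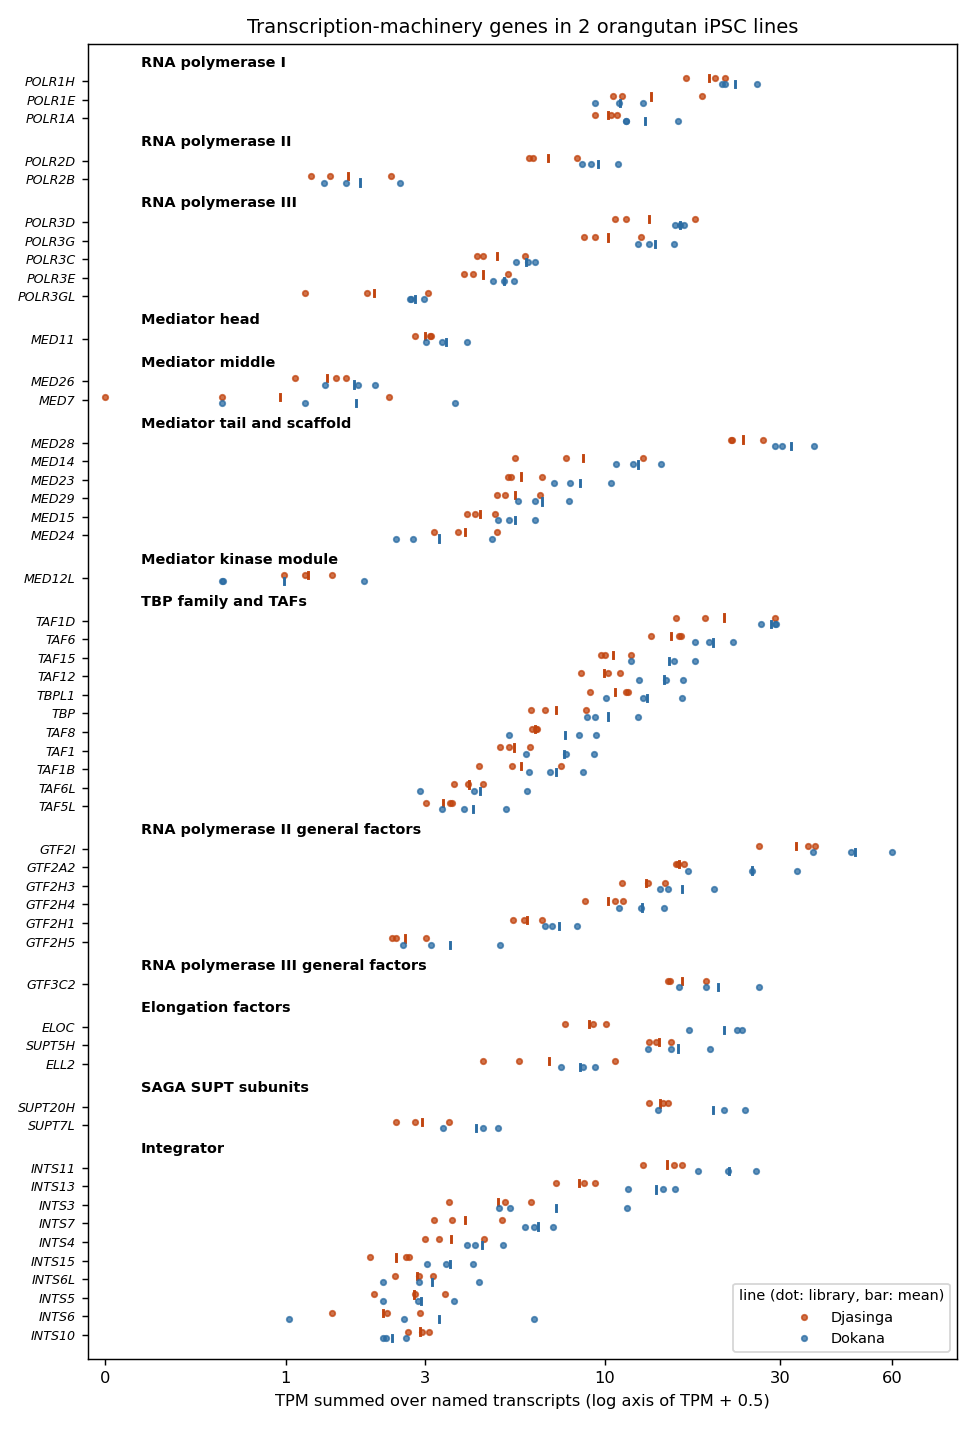
Level of each of the 53 tested member genes by role group, in TPM on a log axis of TPM + 0.5; dots are the 3 libraries of Djasinga (red, upper row of a gene) and of Dokana (blue, lower row), and bars are line means. GTF2I, MED28, TAF1D and POLR1H lie furthest right, and most genes show overlapping lines.

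Among RNA polymerase I subunits, the 3 paired members were all well expressed and 0 of 3 passed the test between the lines. POLR1H, the small zinc-ribbon subunit that takes part in RNA cleavage, was at 21.3, 16.7 and 20.1 TPM in Djasinga and 21.3, 20.9 and 26.1 TPM in Dokana, which overlap. POLR1E, which forms a dissociable pair with POLR1G on the enzyme, was at 18.5, 11.2 and 10.5 TPM in Djasinga and 9.36, 10.9 and 12.7 TPM in Dokana. Djasinga replicate 1 had the highest value of the 6, and after median-ratio scaling every Djasinga library lay above every Dokana library (scaled log2 difference 0.56, limma adjusted p 0.624). POLR1A, the largest subunit, was at 10.4, 9.36 and 10.8 TPM in Djasinga and 11.5, 11.5 and 15.9 TPM in Dokana. Its log2 difference was -0.30 as deposited and 0.022 after median-ratio scaling, where the lines overlapped.

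Of RNA polymerase II only POLR2D and POLR2B were paired, 2 of 13. POLR2D, a subunit of the stalk that carries the nascent RNA, was at 8.34, 6.28 and 6.10 TPM in Djasinga and 8.65, 9.12 and 10.9 TPM in Dokana. As deposited the lines did not overlap, as for 24.5% of all genes lower in Djasinga (log2 difference -0.42). After median-ratio scaling they overlapped (-0.11). POLR2B, the second-largest subunit and part of the active site, was at 1.25, 1.47 and 2.35 TPM in Djasinga and 1.40, 2.51 and 1.66 TPM in Dokana. Its sum is that of 1 named transcript, and the lines overlap.

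RNA polymerase III had 5 of 10 members paired, between 2.44 and 14.7 TPM on average. POLR3D, which joins the initiation-termination part of the enzyme, was at 17.7, 11.4 and 10.6 TPM in Djasinga and 15.5, 16.5 and 16.1 TPM in Dokana. POLR3G and POLR3GL are alternative subunits, and POLR3G is the form known to be high in undifferentiated human pluripotent cells. POLR3G was at 12.5, 8.72 and 9.40 TPM in Djasinga and 13.2, 12.4 and 15.5 TPM in Dokana, while POLR3GL was at 1.96, 3.08 and 1.18 TPM in Djasinga and 2.99, 2.70 and 2.72 TPM in Dokana. POLR3G was the higher of the pair in all 6 libraries, with a mean log2 ratio of (TPM + 1) of 1.90 ± 0.56 in Djasinga and 1.95 ± 0.18 in Dokana (SD, n = 3 each). The difference in this ratio, -0.047, was smaller than the spread between passages (two-sided exact permutation p = 1), and its sign turned to 0.28 without Djasinga replicate 2 and 0.056 without Dokana replicate 3.

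Mediator had 12 of 30 members paired, and the tail and scaffold were the best covered, with 6 of 10. MED28, the most abundant, was at 27, 22.3 and 22.2 TPM in Djasinga and 30.3, 29.2 and 37.0 TPM in Dokana. Its log2 difference was -0.41 as deposited and -0.073 after median-ratio scaling, where the lines overlapped. MED14, the scaffold that joins head, middle and tail, was at 12.8, 7.79 and 5.57 TPM in Djasinga and 12, 10.7 and 14.3 TPM in Dokana, so that Djasinga replicate 1 lay among the Dokana values. MED23, a tail subunit that receives activator signals, was at 6.64, 5.31 and 5.42 TPM in Djasinga and 7.99, 7.21 and 10.4 TPM in Dokana. The lines did not overlap as deposited (24.5% of all genes were so and lower in Djasinga) or after median-ratio scaling (7.16%). The log2 difference was -0.48 as deposited and -0.17 after scaling. MED24, another tail subunit, leaned the other way, at 3.78, 4.94 and 3.21 TPM in Djasinga and 2.76, 2.45 and 4.76 TPM in Dokana (log2 difference 0.23, SE 0.26, limma adjusted p 0.601). After median-ratio scaling the MED24 difference was 0.51, without overlap (limma adjusted p 0.624).

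In the head, MED11 was at 3.13, 2.79 and 3.13 TPM in Djasinga and 3.40, 3.02 and 4.04 TPM in Dokana, and MED8 stayed between 0.260 and 0.448 TPM over all libraries. In the middle, MED26, which docks elongation factors, was at 1.08, 1.67 and 1.54 TPM in Djasinga and 1.41, 2.08 and 1.82 TPM in Dokana. MED7 scattered within each line, at 2.32, 0 and 0.518 TPM in Djasinga and 1.19, 3.71 and 0.519 TPM in Dokana. Of the MED symbols of the kinase module only MED12L, a paralog of MED12, was paired. It was at 1.49, 0.985 and 1.19 TPM in Djasinga and 0.518, 0.522 and 1.92 TPM in Dokana.

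The TBP family and the TAFs had 16 of 27 members paired and 11 tested. TAF1D, a subunit of the RNA polymerase I selectivity factor, was at 29.1, 15.7 and 18.8 TPM in Djasinga and 29.0, 29.3 and 26.7 TPM in Dokana. TAF6, a histone-fold subunit of TFIID, was at 16.0, 16.2 and 13.4 TPM in Djasinga and 17.6, 19.3 and 22.4 TPM in Dokana. TAF12, another histone-fold subunit shared with SAGA, was at 10.2, 8.59 and 11 TPM in Djasinga and 14.7, 12.4 and 16.4 TPM in Dokana, and TAF15, an RNA-binding protein of the FET family, at 9.75, 9.99 and 11.8 TPM in Djasinga and 17.7, 11.8 and 15.5 TPM in Dokana. As deposited, 4 of the 11 tested, TAF6, TAF12, TAF15 and TBP, were lower in Djasinga without overlap, where 24.5% of all genes were. All 4 overlapped between the lines after median-ratio scaling.

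TBP, the TATA-binding protein, was at 6.79, 6.17 and 8.87 TPM in Djasinga and 9.40, 8.92 and 12.3 TPM in Dokana. Its paralog TBPL1, which serves TATA-less promoters, was at 11.5, 9.10 and 11.4 TPM in Djasinga and 12.8, 10.1 and 16.3 TPM in Dokana, and stood above TBP in all 6 libraries. The log2 ratio of TBP to TBPL1 was -0.51 ± 0.18 in Djasinga and -0.31 ± 0.13 in Dokana (SD, n = 3 each; two-sided exact permutation p = 0.3). TAF1, the largest TFIID subunit, was at 5.05, 5.34 and 6.16 TPM in Djasinga and 7.76, 5.98 and 9.33 TPM in Dokana, while its retrocopy TAF1L stayed between 0.185 and 0.268 TPM. TAF1 and TAF1L are near-identical and reads could have been split between them, so the low values of TAF1L are uncertain.

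The ratio of TAF1 to TAF1L, like those of the other pairs, was taken on TPM + 1. It was 2.39 ± 0.11 in Djasinga and 2.83 ± 0.25 in Dokana on the log2 scale, without overlap (two-sided exact permutation p = 0.1, the smallest that 3 against 3 libraries allow, and 0.5 adjusted over the 5 pairs). With TAF1L at 0.185 to 0.268 TPM the added 1 makes up most of its side. The ratio of the TPM values themselves is therefore larger, and the printed ratio largely follows TAF1. TAF1 alone had a log2 difference of -0.40 as deposited and -0.091 after median-ratio scaling. The ratio was not computed on scaled values, so it does not show a balance that differs between the lines. TAF6L, which replaces TAF6 in SAGA, was at 4.05, 3.69 and 4.51 TPM in Djasinga and 4.23, 2.90 and 6.03 TPM in Dokana, and lay below TAF6 in all 6 libraries. The log2 ratio of TAF6 to TAF6L was 1.67 ± 0.25 in Djasinga and 1.98 ± 0.35 in Dokana (SD, n = 3 each; two-sided exact permutation p = 0.5). Of 14 paralog pairs listed, these and INTS6 with INTS6L were the 5 with both symbols paired, and 0 of 5 could pass a threshold of 0.05 in this design.

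Of the general factors of RNA polymerase II, 8 of 14 were paired and 6 tested. GTF2I, a multifunctional factor, was the most abundant member of all, at 26.3, 37.3 and 35.7 TPM in Djasinga and 46.5, 36.8 and 59.9 TPM in Dokana. It has near-identical partial copies in great apes, so its level is uncertain. GTF2A2, the small subunit of TFIIA, was steady in Djasinga at 16.5, 15.9 and 15.7 TPM and spread in Dokana at 25.2, 16.9 and 33.4 TPM. Its log2 difference was -0.57 as deposited and -0.23 after median-ratio scaling, where the lines overlapped. The 4 TFIIH subunits tested, GTF2H1, GTF2H3, GTF2H4 and GTF2H5, ranged from 2.37 to 19.9 TPM over all libraries, and after median-ratio scaling their log2 differences lay between -0.039 and 0.045.

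Of the RNA polymerase III general factors, GTF3C2, a TFIIIC subunit, was at 15.1, 14.9 and 18.9 TPM in Djasinga and 19.0, 15.9 and 26.3 TPM in Dokana. SUPT20H and SUPT7L, both SAGA subunits, were at 13.2, 15.0 and 14.5 TPM and at 3.56, 2.80 and 2.44 TPM in Djasinga. In Dokana SUPT20H was at 21.2, 14 and 24.1 TPM and SUPT7L at 4.48, 3.42 and 4.98 TPM, and both overlapped between the lines. SUPT20HL2, a SUPT20H-like gene in no role list, stayed at or below 0.0471 TPM.

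Integrator had 11 of 16 members paired and 10 tested, 4 of them without overlap and lower in Djasinga (INTS11, INTS13, INTS7 and INTS15), where 24.5% of all genes were, and 1 without overlap and higher (1.18% of all genes). After median-ratio scaling INTS13 alone of these 4 had no overlap. INTS11, the endonuclease of the complex, was at 12.7, 15.5 and 16.3 TPM in Djasinga and 21.8, 18.1 and 25.8 TPM in Dokana. INTS13, which forms a module with INTS10 and INTS14, was at 9.37, 8.73 and 7.27 TPM in Djasinga and 14.4, 11.6 and 15.6 TPM in Dokana. INTS7 was at 5.12, 3.63 and 3.21 TPM in Djasinga and 6.31, 5.95 and 7.13 TPM in Dokana. Each of the 3 was separate between the lines, with log2 differences of -0.52 (SE 0.20), -0.65 (SE 0.19) and -0.60 (SE 0.20), and 0 of 3 passed the threshold (limma adjusted p 0.326, 0.300 and 0.326). Scaled by the median ratio, they differed by -0.19, -0.33 and -0.30, and INTS11 and INTS7 overlapped between the lines.

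INTS10 was higher in Djasinga, at 3.09, 2.93 and 2.65 TPM in Djasinga and 2.22, 2.26 and 2.62 TPM in Dokana (log2 difference 0.21, SE 0.17, limma adjusted p 0.483; 0.46 after median-ratio scaling, limma adjusted p 0.415). As deposited, 9 of the 10 tested Integrator members were below 0 (86% of all genes). After scaling 5 of the 10 were (52.1% of all genes). INTS6 and its paralog INTS6L were close in level, at 1.49, 2.28 and 2.90 TPM and 2.89, 2.42 and 3.19 TPM in Djasinga, and stood at 2.59, 1.03 and 6.31 TPM and 2.87, 2.21 and 4.39 TPM in Dokana. Their log2 ratio was -0.27 ± 0.33 in Djasinga and -0.11 ± 0.55 in Dokana (SD, n = 3 each; two-sided exact permutation p = 1).

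Between the lines, 0 of 53 member genes passed an adjusted p of 0.05, against 22 of 6255 genes tested (0.352%; limma on log2(TPM + 1), 6 libraries). After median-ratio scaling it was 0 of 53 members, against 0.32% of all genes, and with the replicate block 0 of 53, against 0.0799%. At an unadjusted p under 0.05 there were 6 members, ELOC, INTS13, INTS7, TAF12, INTS11 and MED23, all lower in Djasinga, against 13.9% of all genes lower and 0.895% higher at that level. After median-ratio scaling there were 2 lower, ELOC and INTS13 (3.96% of all genes), and 3 higher, INTS10, POLR1E and MED24 (3.33%). As deposited 49 of 53 members had a log2 difference below 0, where 86% of all genes did, and the members' median was -0.30 against -0.29 for all genes. After median-ratio scaling 25 of 53 were below 0, where 52.1% of all genes were, with a median of 0.015 against -0.0097. The lines did not overlap at 16 members lower in Djasinga (24.5% of all genes) and 1 higher (1.18%) as deposited. After scaling these were 3 members lower (7.16%), ELOC, INTS13 and MED23, and 4 higher (5.93%), INTS10, POLR1E, MED24 and MED11. The members' counts were thus near the background on both scales.

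**Figure D2:**
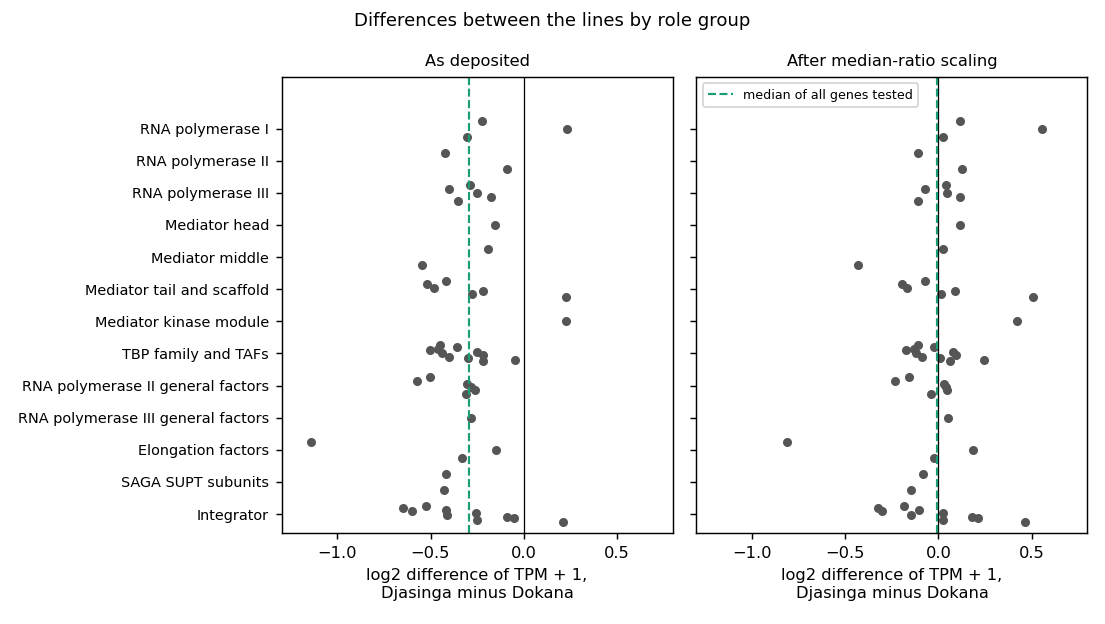
Log2 difference of TPM + 1, Djasinga minus Dokana, for the 53 tested member genes by role group, as deposited (left) and after median-ratio scaling (right); each dot is a gene, and the dashed line is the median of all 6255 genes tested. As deposited the dots gather around -0.29, after scaling around 0, and ELOC in the elongation factors lies lowest on both scales.

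Dokana replicate 3 stood apart as deposited. It held the highest value of the 6 for 39 of 53 members as deposited, where 61.9% of all genes had their highest value, and for 6 of 53 after scaling (9.51% of all genes). The members' median deviation from the 6-library median was -0.024, -0.22 and -0.082 in Djasinga replicates 1, 2 and 3 and 0.072, 0.0031 and 0.39 in those of Dokana, in log2 units. After scaling it lay between -0.061 in Djasinga replicate 2 and 0.031 in Djasinga replicate 3. The median member varied within a line by an SD of 0.22 on the log2 scale, against 0.27 for all genes.

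Partners of these complexes that lie outside the chosen families were counted in the same way. Of 50 listed kinases, cyclins, pausing factors and RNA polymerase I and III factors, 23 were paired and tested and 0 passed the threshold (limma), with 6 below and 0 above in Djasinga when p was left unadjusted. These 6 are 26.1% of the 23, where 13.9% of all genes were lower and 0.895% higher, and after median-ratio scaling there were 3 lower (3.96% of all genes) and 0 higher (3.33%). TCEA1 had the lowest adjusted p; it is, the elongation factor TFIIS that restarts arrested RNA polymerase II, and was at 39.4 ± 3.01 TPM in Djasinga and 64.3 ± 13.0 TPM in Dokana (log2 difference -0.68, limma adjusted p 0.294; -0.33 after scaling, limma adjusted p 0.486). CDK7, the kinase of TFIIH, was at 12.1 ± 1.39 TPM in Djasinga and 19.1 ± 4.39 TPM in Dokana (log2 difference -0.59, limma adjusted p 0.326; -0.26 after scaling). After scaling, 13 of the 23 were below 0 (56.5%, against 52.1% of all genes).

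The transcripts of POLR1H told the lines apart while its sum did not. The gene has 2 named transcripts, XM_009251143.2 and XM_009237094.2. XM_009251143.2 was at 0.376, 0 and 1.02 TPM in Djasinga and 21.1, 15.1 and 18.6 TPM in Dokana, a wide gap with no overlap. XM_009237094.2 was at 20.9, 16.7 and 19.1 TPM in Djasinga and 0.212, 5.77 and 7.55 TPM in Dokana, also with no overlap and in the opposite direction.

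Of POLR1H's TPM, XM_009237094.2 thus held 98.2%, 100% and 94.9% in Djasinga and 0.992%, 27.6% and 28.9% in Dokana. The line means of this share were 97.7% ± 2.58 in Djasinga and 19.2% ± 15.8 in Dokana (SD, n = 3 each; two-sided exact permutation p = 0.1, the smallest possible). In Dokana, replicate 1 carried almost none of it and replicates 2 and 3 more of it, so the passages of that line also differed.

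In the fit over all 22561 transcripts, XM_009251143.2 of POLR1H was lower in Djasinga and passed the threshold (log2 difference -3.76, SE 0.29, limma adjusted p 0.000919). After median-ratio scaling the difference was -3.53 (limma adjusted p 0.00552), and with scaling and the replicate block together the limma adjusted p was 0.0565. XM_009237094.2 differed by 2.26 (SE 0.65) and did not pass (limma adjusted p 0.205), with an interval from 0.76 to 3.77. Without Dokana replicate 1 its difference was 1.38 (limma adjusted p 0.102). The sum of both differed by -0.22 (SE 0.18, 95% interval -0.65 to 0.20, limma adjusted p 0.487) as deposited and by 0.11 after scaling.

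**Figure D3:**
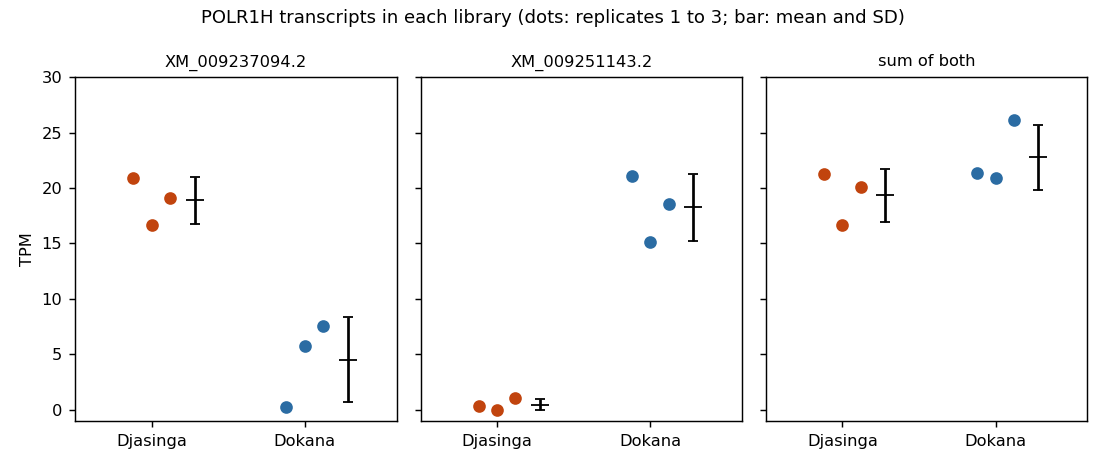
TPM of the 2 named POLR1H transcripts and of their sum in each library, Djasinga left and Dokana right; dots are replicates 1 to 3 from left to right, and bars are mean and SD. XM_009237094.2 is high in Djasinga, XM_009251143.2 in Dokana, and the sums lie between 16.7 and 26.1 TPM.

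Set beside other genes, POLR1H had the largest shift in transcript make-up of 2175 tested genes with several named transcripts, 78.5% of its TPM, followed by a gene at 72.3%. The measure is the share of the gene's TPM that would have to move to other transcripts to turn one line's mean make-up into the other's, and its median was 6.02% over all these genes and 5.94% over the 18 members among them. A single transcript led in every Djasinga library and another in every Dokana library in 24 of the 2175 genes (1.1%), and in 1 of the 18 members, POLR1H. These positions are a description, since POLR1H was singled out with earlier results of these data known.

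**Figure D4:**
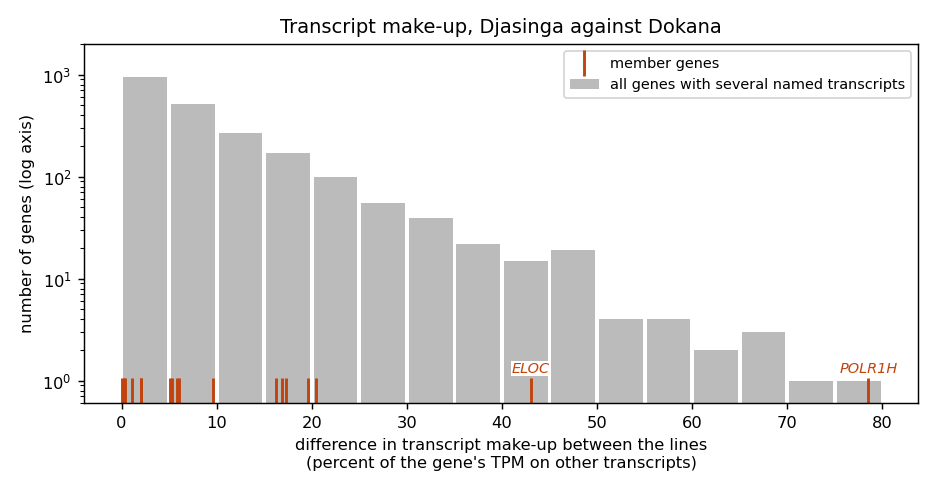
Number of genes (log axis) by the difference in transcript make-up between the lines, in percent of a gene's TPM, for the 2175 tested genes with several named transcripts (grey bars); red ticks mark the 18 members. POLR1H lies at 78.5%, ELOC at 43.0%, and the other members at or below 20.4%.

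ELOC, or elongin C, is the small adaptor that joins elongin A to elongin B and also links substrate receptors such as VHL to cullin ubiquitin ligases. Its sum over 7 named transcripts was at 9.28, 7.73 and 10.1 TPM in Djasinga and 17, 23.6 and 23 TPM in Dokana, without overlap as deposited or after scaling. The log2 difference of the sum was -1.14 (SE 0.20), the largest among the 53 members, and it did not pass over all genes (limma adjusted p 0.114; -0.81 after scaling, limma adjusted p 0.339). When protein-coding genes alone were tested it passed (limma adjusted p 0.0194).

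One ELOC transcript carried most of this difference. XM_009243876.2 was at 0.747, 0.00167 and 3.11e-08 TPM in Djasinga and 2.74, 11.1 and 15.1 TPM in Dokana, with Dokana replicate 1 far below the other 2. It fell by 2.90 on the log2 scale in Djasinga (SE 0.52, limma adjusted p 0.0498), just inside the threshold. The call was lost with the replicate block (limma adjusted p 0.0917), after median-ratio scaling (0.118) and without any 1 of the libraries except Dokana replicate 1 (0.0572 to 0.238), and without Dokana replicate 1 the adjusted p was 0.00453.

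Without that transcript, the other 6 of ELOC summed to 8.53, 7.73 and 10.1 TPM in Djasinga and 14.3, 12.6 and 7.90 TPM in Dokana, which overlap (two-sided exact permutation p = 0.3). XM_009243869.2, the leading ELOC transcript in Djasinga on average, was at 2.89, 2.66 and 2.16 TPM in Djasinga and 3.03, 3.13 and 2.97 TPM in Dokana, close but without overlap as deposited. XM_009243882.1 was at 1.91, 1.79 and 2.53 TPM in Djasinga and 2.60, 2.49 and 3.05 TPM in Dokana, which overlap. XM_009243875.2 was at 1.06, 1.23 and 3.43 TPM in Djasinga and 4.09, 1.86 and 0 TPM in Dokana, highest in the Dokana library where XM_009243876.2 was lowest.

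The noncoding model XR_655589.2 of ELOC was at 1.81, 0.733 and 1.30 TPM in Djasinga and 3.51, 2.21 and 1.30 TPM in Dokana, and XM_009243871.2 at 0.862, 1.32 and 0.639 TPM in Djasinga and 1.01, 0.846 and 0.583 TPM in Dokana. XM_009243872.2 was listed at 0 in 5 libraries and at 2.04 TPM in Dokana replicate 2. The share of XM_009243876.2 in the gene was 8.05%, 0.0216% and 3.09e-07% in Djasinga and 16.1%, 46.8% and 65.6% in Dokana, without overlap (two-sided exact permutation p = 0.1, the smallest possible, and 0.15 adjusted over the 9 shares tested for POLR1H and ELOC).

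**Figure D5:**
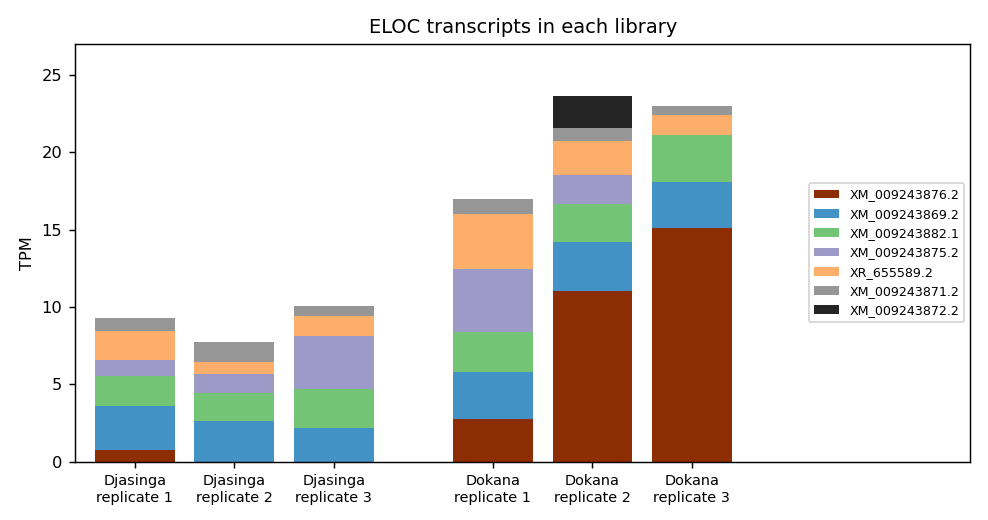
TPM of the 7 named ELOC transcripts, stacked, in each library, Djasinga left and Dokana right. The dark red part, XM_009243876.2, is between 2.74 and 15.1 TPM in Dokana and at most 0.747 TPM in Djasinga.

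The other elongation factors have 1 named transcript each. SUPT5H, a subunit of the pausing and elongation factor DSIF, was at 13.2, 13.8 and 15.2 TPM in Djasinga and 15.2, 13.1 and 19.4 TPM in Dokana (log2 difference -0.15, SE 0.19, limma adjusted p 0.642; 0.18 after median-ratio scaling, limma adjusted p 0.864). ELL2, part of the super elongation complex, was at 10.6, 5.71 and 4.50 TPM in Djasinga and 7.52, 8.67 and 9.39 TPM in Dokana.

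Of the 73 member transcripts tested, 2 passed the threshold, those of POLR1H and ELOC, both lower in Djasinga, against 232 of 22561 transcripts (1.03%). After median-ratio scaling 1 passed, that of POLR1H, against 0.789% of all transcripts, and 1 passed with the replicate block, against 0.674%. Transcripts of opposite sign occurred in 5 of the 13 members with several tested transcripts as deposited, against 341 of 1121 such genes (30.4%), and in 10 of 13 after median-ratio scaling, against 56.8%. As deposited, beside POLR1H and ELOC, these were SUPT20H, GTF2H1 and INTS15, whose transcripts spanned -0.85 to 0.24, -0.57 to 0.20 and -0.64 to 0.053 on the log2 scale, and 0 of their transcripts passed.

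In GTF2H1, a TFIIH core subunit, XM_009246541.1 was at 3.56, 3.48 and 2.28 TPM in Djasinga and 5.01, 4.30 and 5.92 TPM in Dokana, without overlap (limma adjusted p 0.312). XM_002821986.4 of GTF2H1 was at 3.11, 2.00 and 3.64 TPM in Djasinga and 2.11, 2.50 and 2.46 TPM in Dokana. For SUPT20H no transcript led in all libraries of either line, and its leading one, XM_024257665.1, held 26.2% ± 13.6 in Djasinga and 24.3% ± 7.44 in Dokana (SD, n = 3 each). In INTS15, XM_024250031.1 held 27.9% ± 17.5 of the gene's TPM in Djasinga and 45.0% ± 8.61 in Dokana (SD, n = 3 each). Transcripts of 1 gene share exons, and the sources used here do not say how reads were divided among them. Its part in these shares was not tested.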

How the data were processed

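RNA was measured in 6 libraries, 3 of each of 2 lines. The authors deposited TPM per transcript, per the file headers, as length-corrected shares that sum to 1000000 per library. Per the submitters' processing notes, which give no roles, the tools were STAR, StringTie, FastQC 0.11.9 and Trimmomatic 0.39. Which tool quantified, on which build and with what strand setting was not stated in the sources. Members and lists were chosen with earlier results of these data known.

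Transcripts were paired with symbols through the RefSeq table of NHGRI_mPonAbe1-v2.0, used for names only, by accession without version. Of 43705 RefSeq transcripts, 22112 (50.6%) got a symbol, and for 3321 the version matched as well. The called transcripts of POLR1H and ELOC were not among these 3321. TPM was then summed per symbol. Djasinga minus Dokana was tested with limma-trend on log2(TPM + 1), on features reaching 1 TPM in 3 or more libraries. Adjusted p-values (Benjamini-Hochberg, over all such features) were called under 0.05. This log2 scale makes changes of low genes look smaller. The depth is unknown and the number of libraries limits the precision. The test was also run on simulated data, but the outcome is not given here and no result rests on it.

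Named with values were the 2 highest genes of each role group, members called at either level, the 10 members with the smallest p, paralog pairs, all POLR1H and ELOC transcripts and members with transcripts of opposite sign; any other gene was picked with its values in view. The labels give the replicate number under a batch tag, so the replicate block paired libraries by it. The main fits had no block. Across all genes tested, the deviations of the numbered pairs 1, 2 and 3 had correlations of -0.093, -0.13 and 0.15, which are weak and of mixed sign. Across the 53 tested members they were 0.0046, -0.48 and 0.32, again of mixed sign but larger for pairs 2 and 3. Alternatives covered the replicate block, leaving out each library, scaling, filters, pseudocount, gene classes and accession version. Leaving out the most abundant transcript, and scaling with the block, were chosen after seeing the data. Software was limma 3.58.1 in R 4.3.3, and pandas 2.3.3, numpy 2.4.6 and matplotlib 3.10.9 in Python 3.11.15. No sequences are printed.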

Additional observations from a re-analysis of the deposited data

How the results depend on the processing

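The count of member genes past the threshold was 0 under every alternative run except among protein-coding genes alone, where it was 1 (ELOC, which then passed with the same log2 difference of -1.14). The count of member transcripts, 2 as reported, was 1 with the replicate block, after median-ratio scaling, after quantile normalization, without a filter on low values, with a mean of at least 1 TPM, with a pseudocount of 0.1 and without the most abundant transcript, and 1 to 2 when each library was left out. It was 0 with the block and scaling together. It was also 0 when accessions had to match with their version, which left 5 tested members. Neither of the 2 called transcripts was among those kept, so this 0 is their absence and not a failed test. The POLR1H transcript XM_009251143.2 missed the threshold under the replicate block with scaling (-3.53, adjusted p 0.0565) and passed under the other alternatives that kept it. The ELOC transcript XM_009243876.2 missed it with the block (-2.90), scaling (-2.71), quantile normalization (-2.52), no filter (-2.90), the mean filter (-2.90), a pseudocount of 0.1 (-5.26), the block with scaling (-2.71) and the most abundant transcript left out (-3.15), and ranged from -3.53 to -2.48 when a library was left out. The replicate block changed no other call.

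The members' median difference was 0.015 after median-ratio scaling, 0.012 after quantile normalization, 0.015 with scaling and the block and -0.048 without the most abundant transcript. The POLR1H sum turned to 0.11, 0.12, 0.11 and 0.046 under these 4, and the ELOC transcript XM_009243869.2 to 0.071, 0.058, 0.071 and 0.022. Leaving out 1 library moved XM_009243875.2 of ELOC between -0.48 and 0.69, the POLR3G to POLR3GL ratio between -0.22 and 0.28 and the INTS6 to INTS6L ratio between -0.44 and 0.11. With a pseudocount of 0.1 the POLR3G to POLR3GL ratio differed by 0.081. Scaling by construction removes a shift common to most genes; for the rest the cause was not tested. TPM sets no detection limit here because depth is unknown.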
